A study of Mus musculus with 6 samples.

Results

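The replication-dependent histone genes of the mouse were examined as a group of 64 genes among the 23238 gene symbols counted in mouse embryonic stem cell lines. The members were chosen by symbol alone, as all 68 symbols that begin with Hist1h, Hist2h, Hist3h or Hist4h, and were grouped by the class that the symbol names. The genes were taken up as a group with earlier results of these data known. Within the rule, measured values served only to merge duplicates: Hist2h2aa1 and Hist2h2aa2 had identical counts in all 6 libraries, as did Hist2h3c1 and Hist2h3c2, so each of these 2 pairs was counted once. A further 2 symbols, Hist1h1t (a linker histone of the testis) and Hist3h2bb-ps (a pseudogene), had no count in any library, which allows up to 3 counts per library. The remaining 64 genes were 5 for H1, 17 for H2A, 18 for H2B, 11 for H3 and 13 for H4. By cluster they were 53 Hist1, 8 Hist2, 2 Hist3 genes and 1 Hist4 gene.

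Nucleosomes wrap DNA around an octamer of the core histones H2A, H2B, H3 and H4, and H1 binds the linker DNA between them. Cells make most of this protein during S phase from replication-dependent genes, which lie in clusters, mostly lack introns and are switched on together. Their mRNAs are the exception among animal mRNAs in that they normally end in a conserved stem-loop, bound by SLBP, and not in a poly(A) tail. Replacement histones are made outside S phase from separate genes, most of which give ordinary polyadenylated mRNAs.

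The study set a stable EGFP line against a stable line that expressed a fusion of EWS and OCT4 (EWS-OCT4), with 3 libraries each. Both lines were embryonic stem cells of strain 129/Ola, grown with LIF, and both received doxycycline at 1 µg/ml, which lowers their endogenous OCT4. EWS-OCT4 joins part of the EWS protein to the pluripotency factor OCT4 and is known from human tumours. The labels name 1 stable line per genotype, and they do not say whether a line was a clone or whether its libraries came from separate cultures, so every p-value here measures only the spread between these libraries. The RNA was read with QuantSeq, a kit that primes on stretches of A with oligo(dT) and sequences close to the priming site, so that 1 read per transcript is intended and levels were not divided by length.

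Depth ran from 10978025 to 14935887 counts. Levels are given as CPM, which are counts scaled by library total and TMM factor, and 1 count stood for 0.0670 to 0.0911 CPM before that scaling. In both lines the library numbered 3 stood apart from the other two: a chi-square comparison of counts over genes, divided by its degrees of freedom, gave 4.01 and 4.31 between libraries 1 and 2 of a line, and 25.3 to 34.6 between library 3 and either of them. The lines themselves lay far apart, with 90.4% of the variance on the first principal component. The 10 embryonic stem cell markers summed to 310.3 to 379.9 CPM in the EGFP libraries and 4762 to 5308 CPM in the EWS-OCT4 libraries, and the 10 trophoblast markers to 4737 to 5378 and 252.4 to 278.8 CPM, so the EGFP libraries went against their embryonic stem cell label. All 10 stem cell markers were higher and all 10 trophoblast markers lower in EWS-OCT4. Pou5f1, the gene for OCT4, was at 0.373 to 0.911 CPM in EGFP and 1.66 to 3.02 CPM in EWS-OCT4. The ribosomal RNA precursor Rn45s took 5.85 to 6.44% of counts in EGFP and 7.36 to 10.5% in EWS-OCT4. The part of these differences in any histone result was not tested.

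The ends of the histone transcripts are shown because the kit primes on A. In the GENCODE M21 transcripts of build GRCm38 (mm10), 67 of the 68 symbols had a coding transcript. Of the 46 counted members with at least 40 annotated bases after the stop codon, 43 held the 16-base histone stem-loop there, against 13 of 19317 other coding genes (0.0673%). The 30 bases that end with the stem-loop are printed with the stem-loop in capitals, for the 2 most abundant members, for other H2A genes, and for 1 member each of H1, H3 and H4.
Hist1h2ap, chr13:21833029-21833058, minus strand: agaaaaaaaaaaaaGGCTCTTTTCAGAGCC
Hist1h2ao, chr13:21810884-21810913, plus strand: agaaaaaaaaaaaaGGCTCTTTTCAGAGCC
Hist1h2ae, chr13:23570668-23570697, minus strand: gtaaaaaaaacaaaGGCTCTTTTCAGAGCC
Hist1h2ac, chr13:23683477-23683506, minus strand: acttcaaacccaaaGGCTCTTTTCAGAGCC
Hist2h2aa1, chr3:96246018-96246047, plus strand: cgagctcctaaaaaGGCTCTTTTCAGAGCC
Hist2h2ac, chr3:96220418-96220447, minus strand: cacgaatccaaaaaGGCTCTTTTTAGAGCC
Hist1h1e, chr13:23621782-23621811, minus strand: cccaacaacccaaaGGCTCTTTTCAGAGCC
Hist1h3e, chr13:23561903-23561932, minus strand: acgtaaaccaaaacGGCTCTTTTAAGAGCC
Hist1h4a, chr13:23760800-23760829, minus strand: attttctaaccaaaGGCCCTTCTCAGGGCC
Hist1h2ap and Hist1h2ao were the only members, of the 43 with the stem-loop annotated, with a run of at least 10 A between stop codon and stem-loop. Their run was 12 A long and lay directly before the stem-loop. The next longest between stop codon and stem-loop were 8 A in Hist1h2ae and 7 A in Hist1h3c. Anywhere in the transcript, 4 of the 64 members had a run of at least 10 A, against 11.8% of other coding genes. Besides Hist1h2ap and Hist1h2ao these were Hist1h2ac (15 A) and Hist1h2be (11 A). The 3 members with at least 40 annotated bases after the stop codon but no stem-loop there were Hist1h1a, Hist1h2bc and Hist2h2be. Hist1h1a had only 48 such bases, and the stem-loop of Hist1h1e began 40 bases after the stop codon, so the Hist1h1a annotation may end too early. Only the lowest-numbered coding transcript of each gene was searched. A poly(A) signal with the letters AATAAA lay within 1000 bases after the stop codon in 10 of 64 annotated transcripts, among them Hist1h2bc and Hist1h2be. With ATTAAA also allowed it was in 14. Transcripts with few annotated bases after the stop codon could hardly hold it, and the share over other coding genes was not counted. Whether the A runs or signals set which members were read was not tested.

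The H2A genes are also close copies of one another, which is shown by the last 60 coding bases, stop codon included. Capitals mark the bases that differ from Hist1h2ap.
Hist1h2ap, chr13:21833083-21833142, minus strand: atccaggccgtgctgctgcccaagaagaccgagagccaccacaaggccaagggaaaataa
Hist1h2ao, chr13:21810800-21810859, plus strand: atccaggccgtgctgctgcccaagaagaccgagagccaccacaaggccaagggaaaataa
Hist1h2ad, chr13:23574804-23574863, plus strand: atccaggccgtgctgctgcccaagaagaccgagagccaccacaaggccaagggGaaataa
Hist1h2af, chr13:23534244-23534303, plus strand: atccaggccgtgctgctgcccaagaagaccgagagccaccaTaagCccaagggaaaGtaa
Hist2h2aa1, chr3:96245914-96245973, plus strand: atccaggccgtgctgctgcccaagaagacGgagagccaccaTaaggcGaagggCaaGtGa
Hist2h2ab, chr3:96220249-96220308, plus strand: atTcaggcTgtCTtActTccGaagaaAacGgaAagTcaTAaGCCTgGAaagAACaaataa
Over the whole coding sequence of 393 bases, Hist1h2ap and Hist1h2ao did not differ at any base, Hist1h2ad differed from them at 3 and Hist2h2aa1 at 34. How reads that match several copies were assigned is not given in the sources used here. The counts of single H2A genes are therefore uncertain, and their differences between the lines cannot be taken as independent of each other.

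Histone counts were unevenly spread over the classes in every library, and the lines differed class by class. Summed over the 17 genes, H2A was at 860.3, 810.9 and 1127 CPM in EGFP and at 4456, 5000 and 6504 CPM in EWS-OCT4, so that the mean was 5.70-fold higher in EWS-OCT4. The 5 H1 genes summed to 60.2, 51.1 and 62.7 CPM in EGFP and to 132.3, 145.5 and 121 CPM in EWS-OCT4, 2.29-fold higher. No library of one line reached the range of the other in either class. The other 3 classes lay the other way. H2B summed to 57.3, 54.1 and 32.2 CPM in EGFP against 23.2, 25.7 and 22.4 CPM in EWS-OCT4, a ratio of EWS-OCT4 to EGFP of 0.497. For H3 the sums were 9.91, 10.6 and 13.8 CPM against 3.50, 3.04 and 4.95 CPM, a ratio of 0.335. For H4 they were 13.8, 16.8 and 23.9 CPM against 9.86, 10.2 and 9.40 CPM, a ratio of 0.542. None of these 3 classes overlapped between the lines, and none exceeded 57.3 CPM in a library.

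**Figure D1:**
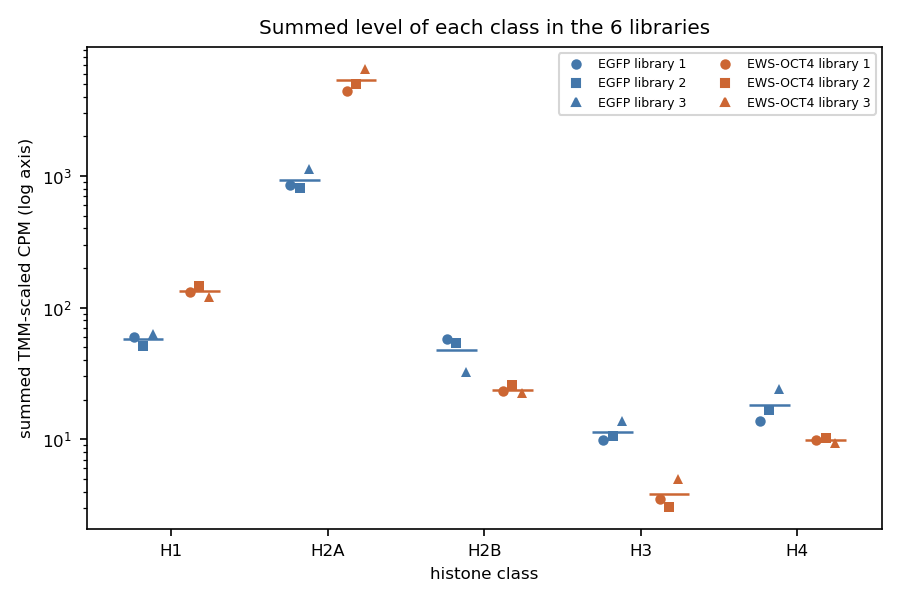
Summed TMM-scaled CPM of each histone class (log axis) in the 3 EGFP and the 3 EWS-OCT4 libraries; each symbol is 1 library and each line the mean of 3. H2A lies between 810.9 and 6504 CPM, and H3 between 3.04 and 13.8 CPM.

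H2A alone made up 85.9, 86.0 and 89.5% of all member counts in EGFP and 96.4, 96.4 and 97.6% in EWS-OCT4. The members together took 0.0956 to 0.130% of a library in EGFP and 0.457 to 0.647% in EWS-OCT4. In a nucleosome the 4 core histones occur in equal number, so these shares are of tags read by this kit and give no proportion of the proteins. In such bulk RNA a larger share of cells in S phase, more histone RNA per cell and a larger part of it primed by the kit cannot be told apart.

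Of the 64 genes, 39 passed the filter on low counts and were tested with edgeR's quasi-likelihood test, with Benjamini-Hochberg adjustment over all 13467 genes tested. At an adjusted p of 0.05, 21 were higher in EWS-OCT4, 7 were lower and 11 were not called. Over all tested genes 67.4% were called, 33.3% higher and 34.1% lower, and the median log2 difference was -0.00. The members called, 28 of 39 (71.8%), were thus a share near that background, with more on the higher side. That lean came from H2A, of which all 16 tested genes were higher. Of the 23 tested members outside H2A, 5 were higher, 7 lower and 11 not called (52.2% called, under the background). The libraries of the lines did not overlap for 31 of the 39, against 72.7% of all tested genes. Of the 39, 33 had libraries of both lines above the filter's level of 0.784 CPM. In 5 (3 H3 and 2 H4 genes) only EGFP libraries were above it, and in 1 (Hist2h2be) only EWS-OCT4 libraries. These 6 had to differ to be tested. They include 5 of the 7 members called lower and 1 of the 21 called higher, so the counts and shares called rest in part on the filter. The adjusted p-values of these 6 are given from a fit without the filter, in which all 64 genes were tested. In that fit 50% of 18933 genes were called. H3 and H4 are described by all their members rather than by those that passed the filter.

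**Figure D2:**
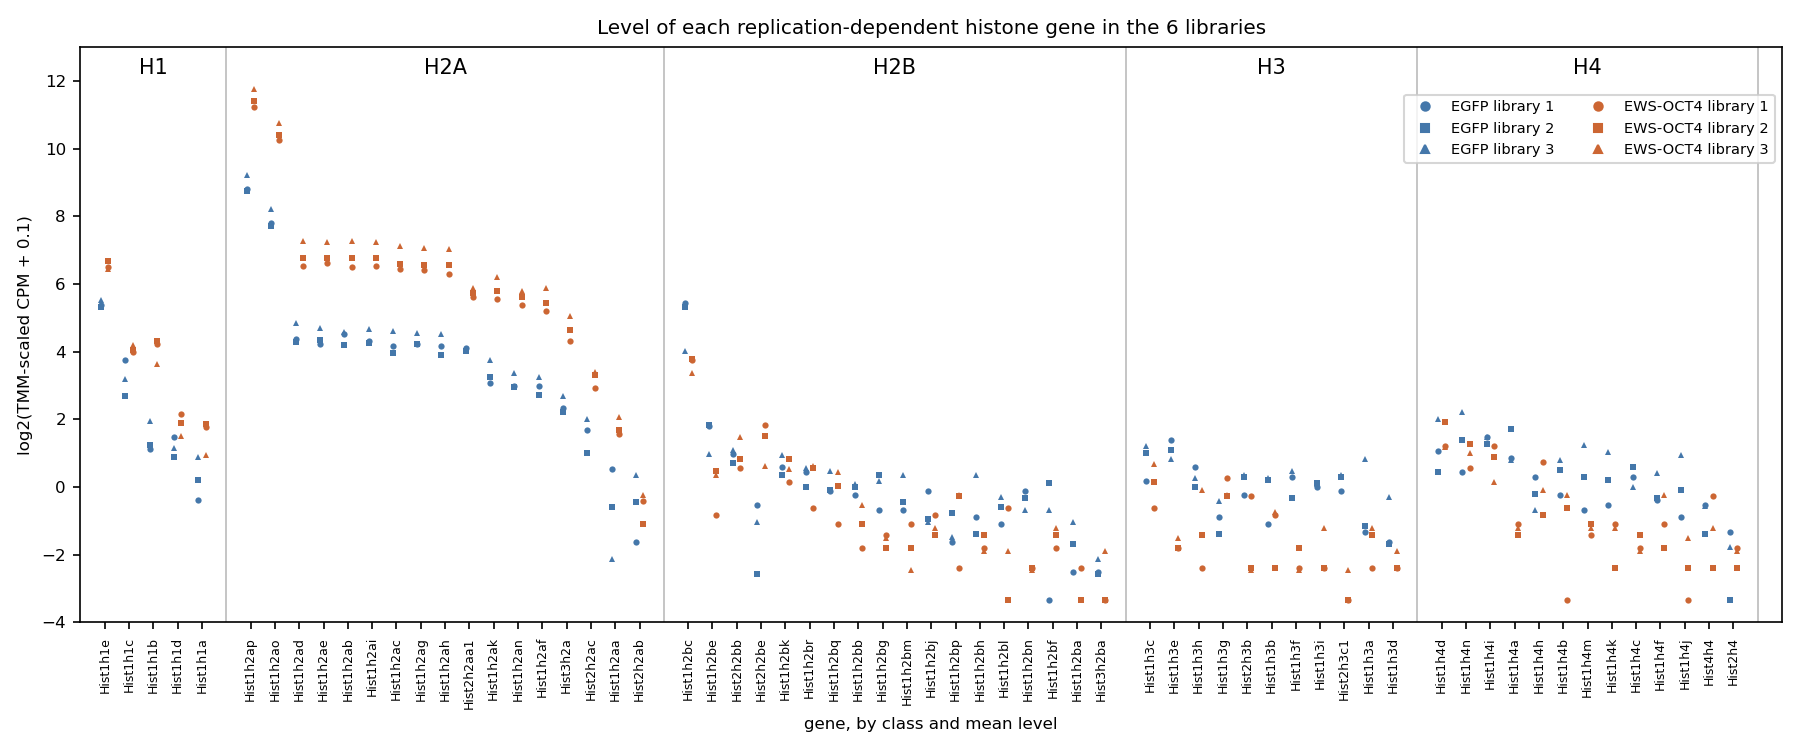
Level of each of the 64 genes as log2(TMM-scaled CPM + 0.1) in the 6 libraries, grouped by class and ordered by mean level; symbols are libraries and colours are lines. The H2A genes other than Hist2h2ab lie higher in all 3 EWS-OCT4 libraries than in any EGFP library, while most H2B, H3 and H4 genes lie near or under 1 CPM.

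H2A pairs with H2B in the nucleosome, and its genes carried most of the signal. All 16 tested H2A genes rose in EWS-OCT4, with log2 differences from 1.63 to 2.55 and a median of 2.46. Hist1h2ap (chr13:21833026-21833507, minus strand) was the most abundant member, at 447.8, 428 and 592.2 CPM in EGFP and 2414, 2694 and 3474 CPM in EWS-OCT4. Every EWS-OCT4 library was above every EGFP library, and library 3 was the highest of each line. The log2 difference was 2.55 (SE 0.18, n = 3 and 3, adjusted p = 1.1e-06, edgeR). Hist1h2ao (chr13:21810465-21810944, plus strand) followed at 225.1, 210.1 and 299.3 CPM in EGFP and 1215, 1348 and 1725 CPM in EWS-OCT4, with a log2 difference of 2.55 (SE 0.18).

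The ratio of Hist1h2ap to Hist1h2ao counts was nearly the same in all libraries, at 1.99, 2.04 and 1.98 in EGFP and 1.99, 2.00 and 2.01 in EWS-OCT4. Hist1h2ap took 52.1 to 54.2% of H2A counts in the 6 libraries, and Hist1h2ao took 25.9 to 27.3%. Hist1h2ad, the next in level, was at 20.6, 19.3 and 28.5 CPM in EGFP and 92.6, 108.7 and 154.8 CPM in EWS-OCT4, again without overlap, and its log2 difference was 2.38 (SE 0.23). Hist1h2af rose from 104, 93 and 145 counts in EGFP to 398, 471 and 700 counts in EWS-OCT4 (log2 difference 2.55, SE 0.23). Without Hist1h2ap and Hist1h2ao the H2A sum was still 5.19-fold higher in EWS-OCT4.

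H2A genes that share less sequence with Hist1h2ap tended to lie lower, and of those tested Hist2h2aa1 and Hist2h2ac differed less between the lines. Hist1h2ap holds 433 stretches of 50 bases, of which the Hist1h2ao transcript shares 403. A further 10 genes, all of the Hist1 cluster, share 149 to 313 of them. These 10 were at 7.89 to 22.8 CPM in EGFP and 46.3 to 118.7 CPM in EWS-OCT4, and their log2 differences ran from 2.36 to 2.55. The other 5 (Hist1h2aa, Hist2h2aa1, Hist2h2ab, Hist2h2ac and Hist3h2a) share 5 to 78 stretches and were at 0.674 to 16.8 CPM in EGFP and 0.590 to 53.5 CPM in EWS-OCT4. The log2 differences of the 4 of these tested were 1.63 to 2.33. Among them, Hist1h2aa (2.33, SE 0.63) and Hist3h2a (2.28, SE 0.25) lay less than 1 SE below the range of the 10. Spearman's rho between stretches shared and mean level was 0.81 in each line over the 17 genes, and 0.73 without Hist1h2ap and Hist1h2ao in EWS-OCT4 (15 genes). The points share libraries and may share reads that fit several copies, so this is a description. No H1, H2B, H3 or H4 member shared any such stretch.

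**Figure D3:**
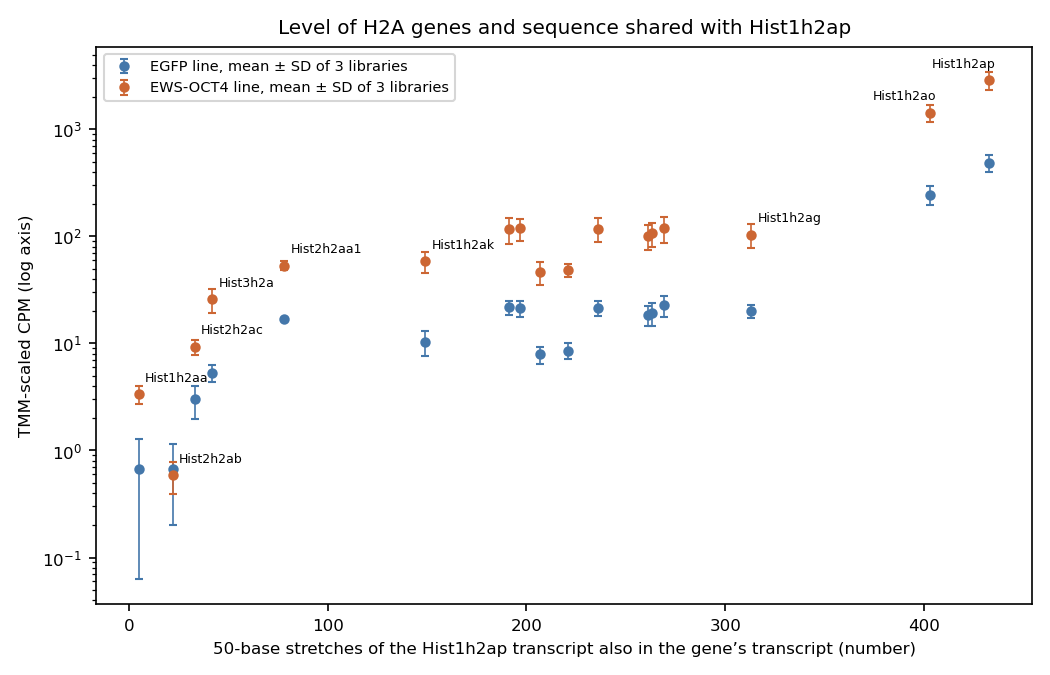
Mean TMM-scaled CPM of the 17 H2A genes (log axis, bars are the SD of 3 libraries) against the number of 50-base stretches of the Hist1h2ap transcript that the gene's transcript also holds. Hist1h2ap and Hist1h2ao lie at the upper right with 433 and 403 stretches, and the 5 genes with 78 or fewer lie at the lower left.

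The H2A genes outside the Hist1 cluster, and Hist1h2aa within it, share at most 78 stretches with Hist1h2ap. Whether their reads were placed apart from those of other copies is not known. Hist2h2aa1 (chr3:96245497-96246082, plus strand), counted together with its twin Hist2h2aa2, was at 17.3, 16.3 and 16.9 CPM in EGFP and 48.5, 53.4 and 58.4 CPM in EWS-OCT4. The EGFP libraries lay close together, and all EWS-OCT4 libraries lay above them. Its log2 difference was 1.67 (SE 0.15, adjusted p = 4.8e-06, edgeR). Hist2h2ac (chr3:96220361-96220880, minus strand) rose from 42, 27 and 61 counts to 82, 106 and 125 counts (1.63, SE 0.33), and Hist3h2a (chr11:58954685-58956830, plus strand) from 67, 65 and 98 to 213, 269 and 391 (2.28, SE 0.25). Hist1h2aa, which encodes a testis-enriched H2A, was low in EGFP at 18, 8 and 2 counts and higher in EWS-OCT4 at 31, 34 and 49 (2.33, SE 0.63). Hist2h2ab was too low to be tested, at 3, 9 and 18 counts in EGFP and 7, 4 and 9 in EWS-OCT4, and its lines overlapped.

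**Figure D4:**
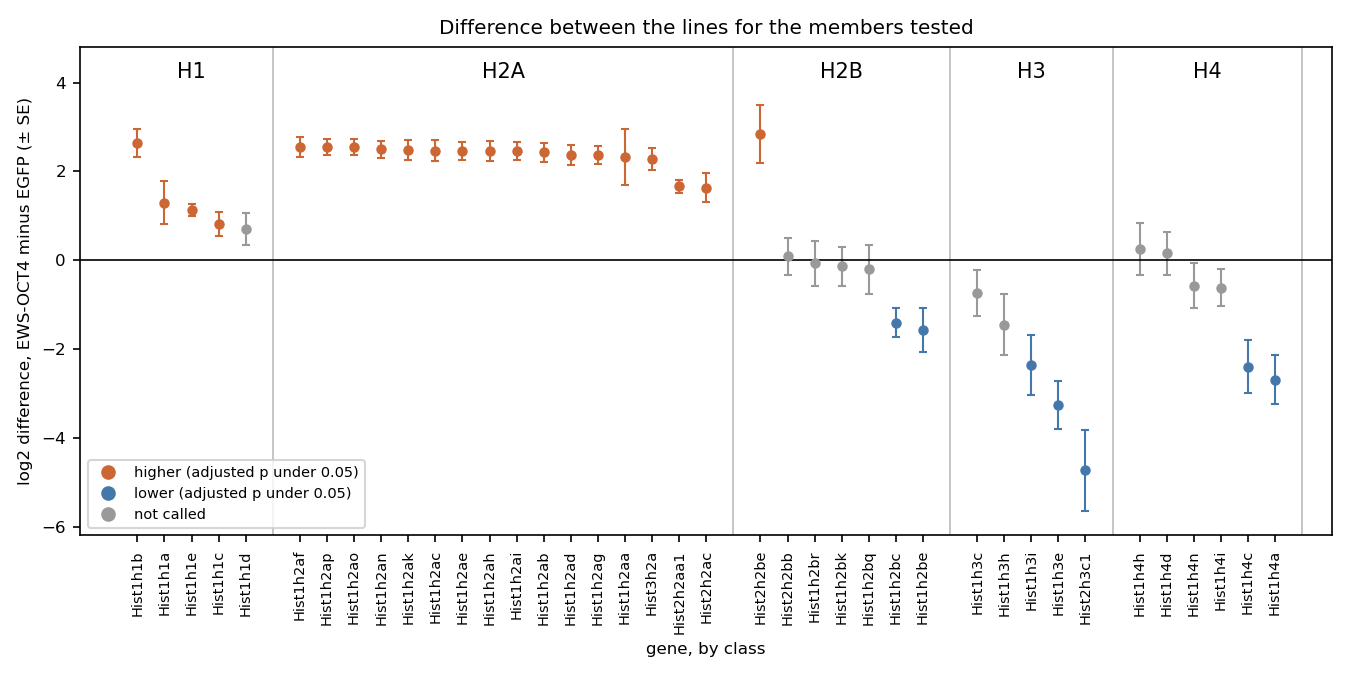
Fitted log2 difference (EWS-OCT4 minus EGFP) with its SE for the 39 members tested, by class; colours give the call at an adjusted p of 0.05. All 16 H2A genes lie between 1.63 and 2.55, while H2B ranges from -1.56 to 2.84; the value of Hist2h3c1, with 1 count in all in EWS-OCT4, depends on the fit's prior count.

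H1 linker histones bind where DNA enters and leaves the nucleosome. All 5 H1 genes had a higher mean in EWS-OCT4, and 4 of them rose. Hist1h1e (chr13:23620629-23622558, minus strand) held most of the class, at 41.3, 39.7 and 45.9 CPM in EGFP and 90.2, 102.1 and 86.0 CPM in EWS-OCT4. The lines did not overlap, and the log2 difference was 1.13 (SE 0.14, adjusted p = 4.2e-05, edgeR). Hist1h1b (chr13:21779883-21780625, minus strand) differed more, at 28, 32 and 58 counts in EGFP and 202, 215 and 147 in EWS-OCT4 (2.64, SE 0.31, adjusted p = 3.9e-05, edgeR). Its share of H1 counts was 3.46 to 6.01% in EGFP and 10.2 to 14.1% in EWS-OCT4.

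The other H1 genes gave weaker differences. Hist1h1a was at 9, 15 and 27 counts in EGFP and 36, 38 and 22 in EWS-OCT4, and only after scaling did the lines not overlap (1.30, SE 0.48, adjusted p = 0.0354, edgeR). Hist1h1c was at 180, 90 and 140 counts against 172, 178 and 216, and likewise did not overlap after scaling (0.81, SE 0.27, adjusted p = 0.0217, edgeR). Leaving out 1 library ended the call of Hist1h1a in 4 of the 6 cases, and that of Hist1h1c in 3. Hist1h1d, at 36, 25 and 33 counts against 47, 39 and 33, was not called (0.70, SE 0.37, adjusted p = 0.117, edgeR).

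H2B genes went both ways and most were scarcely detected. The mean was higher in EGFP for 15 of the 18 genes, but only 7 were tested, of which 2 fell, 1 rose and 4 were not called. Hist1h2bc (chr13:23684199-23692908, plus strand), one of the 3 members with no stem-loop in the transcript searched, held most of the class in EGFP. It was at 43.3, 39.7 and 16.1 CPM in EGFP and 13.5, 13.7 and 10.2 CPM in EWS-OCT4. EGFP library 3 lay far below the other two and not far above EWS-OCT4. The gene fell by 1.41 on the log2 scale (SE 0.33, adjusted p = 0.00356, edgeR), and it kept the call in all 17 alternative fits that tested it. Without it the H2B sum had an EWS-OCT4 to EGFP ratio of 0.767, so the class sum rested largely on this gene.

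Hist1h2be fell by 1.56 (SE 0.50, adjusted p = 0.0175, edgeR), from 46, 49 and 29 counts to 5, 14 and 14. Its annotated gene (chr13:23583670-23621124, minus strand) overlaps Hist1h1e on the same strand, so its reads could not be fully separated, and the call was lost without EGFP library 1, EGFP library 2 or EWS-OCT4 library 1. Hist2h2be (chr3:96221119-96223738, plus strand), another member with no stem-loop in the transcript searched, rose from 8, 1 and 6 counts to 38, 30 and 17. All EWS-OCT4 libraries were above all EGFP libraries, and the log2 difference was 2.82 (adjusted p = 0.00220, edgeR without the filter). Hist2h2bb, next in mean level, overlapped between the lines at 25, 22 and 31 against 15, 18 and 32 counts (0.08, SE 0.42). Of those too low to test, Hist1h2bn had 11, 10 and 8 counts in EGFP and 1 in each EWS-OCT4 library, an EGFP to EWS-OCT4 ratio of 7.54 (95% interval 2.34 to 38.7, counting error only). Hist1h2ba, which encodes the testis-enriched partner of Hist1h2aa, had 10 counts in EGFP and 1 in EWS-OCT4 (7.80, 1.11 to 338.6), and Hist3h2ba 4 and 2 (1.56, 0.224 to 17.2).

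H3 carries the tail that many chromatin marks sit on. No H3 gene reached more than 34 counts in a library, and the mean was higher in EGFP for 10 of the 11 genes. Hist1h3e (chr13:23561534-23562369, minus strand) went from 34, 29 and 26 counts in EGFP to 2, 2 and 3 in EWS-OCT4 and fell by 3.28 on the log2 scale (adjusted p = 0.000497, edgeR without the filter). Hist1h3i went from 12, 14 and 15 to 1, 1 and 4 and fell by 2.39 (adjusted p = 0.0324, edgeR without the filter), and with the filter its call was lost without EWS-OCT4 library 1 or 2. Hist2h3c1, counted with its twin, had 11, 16 and 18 counts against 0, 0 and 1, an EGFP to EWS-OCT4 ratio of 35.1 (95% interval 5.99 to 1417, counting error only). The lines did not overlap in any of these 3 genes.

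Hist1h3c, the highest H3 gene on average, was at 14, 27 and 34 counts in EGFP and 6, 11 and 18 in EWS-OCT4, and was not called (-0.73, SE 0.52). Hist1h3h was at 19, 13 and 17 counts against 1, 3 and 10, with no overlap and no call (-1.45, SE 0.68, adjusted p = 0.0823, edgeR). The exception in direction was Hist1h3g, at 6, 4 and 10 counts in EGFP and 12, 8 and 9 in EWS-OCT4, which was too low to be tested. Its share of H3 counts was 2.63 to 4.72% in EGFP and 15.2 to 31.6% in EWS-OCT4.

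H4, the most conserved core histone, was also low, though above H3 in summed level. The mean was higher in EGFP for 11 of the 13 genes, and no gene passed 70 counts in a library. Hist1h4a (chr13:23760692-23761230, minus strand) went from 23, 45 and 25 counts to 4, 3 and 4 and fell by 2.71 (adjusted p = 0.00161, edgeR without the filter). Hist1h4c went from 15, 20 and 14 to 2, 3 and 2 and fell by 2.41 (adjusted p = 0.0177, edgeR without the filter). Both were without overlap, and in both no EWS-OCT4 library passed the filter's level.

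The 3 most abundant H4 genes were not called. Hist1h4n was at 17, 36 and 70 counts in EGFP and 15, 25 and 23 in EWS-OCT4 (-0.57, SE 0.50). Hist1h4d was at 27, 18 and 61 against 24, 40 and 26 (0.15, SE 0.49). In both, EGFP library 3 was the highest of all, and the lines overlapped. Hist1h4i was at 36, 33 and 41 counts against 24, 19 and 12, without overlap (-0.63, SE 0.42, adjusted p = 0.208, edgeR). The H4 sum of the libraries numbered 1 and 2 gave an EWS-OCT4 to EGFP ratio of 0.658, and that of the libraries numbered 3 gave 0.393.

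Many H2A and H2B genes lie head to head and share the stretch between them. How reads that fit several H2A copies were placed is not known, so the H2A counts of a pair may not come from its locus alone. Hist1h2ac, for example, shares 263 of the 433 stretches of Hist1h2ap. In 13 such pairs the gene starts lay 173 to 306 bases apart. The H2A mean was higher in EWS-OCT4 in all 13, and the H2B mean was lower in 10. Of these 10 H2B genes only Hist1h2bc was called lower. Hist1h2bk (-0.14), Hist1h2bq (-0.21) and Hist1h2br were tested and not called, and the rest were too low to be tested. In the pair Hist1h2ac and Hist1h2bc both genes were called, in opposite directions, with log2 differences of 2.47 and -1.41. Hist1h2ac itself was at 238, 222 and 378 counts in EGFP and 941, 1033 and 1646 in EWS-OCT4. In the pair Hist2h2ac and Hist2h2be both rose, by 1.63 and, in the fit without the filter, 2.82. The exceptions besides Hist2h2be were Hist1h2bp, at 14 counts in EGFP and 18 in EWS-OCT4, and Hist3h2bb-ps with no count. The partner of Hist1h2ap, Hist1h2br, was at 17, 13 and 21 counts against 6, 15 and 17 and was not called (-0.07, SE 0.51), beside a log2 difference of 2.55 in its neighbour. The difference between the partners of a pair was not tested.

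The shared stretch of the pairs in which both genes were called is printed as the 250 bases before the RefSeq start of the H2A gene (GRCm38.p6), in the direction of the H2A gene. Capitals mark the octamer ATGCAAAT, the letters that POU factors such as OCT1 and OCT4 bind and a known element of H2B promoters.
Hist1h2ac, chr13:23683960-23684209, minus strand: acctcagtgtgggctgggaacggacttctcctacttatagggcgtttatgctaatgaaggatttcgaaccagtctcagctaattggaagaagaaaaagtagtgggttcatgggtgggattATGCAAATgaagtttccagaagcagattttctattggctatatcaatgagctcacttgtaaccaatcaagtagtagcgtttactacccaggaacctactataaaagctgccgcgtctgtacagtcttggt
Hist2h2ac, chr3:96220881-96221130, minus strand: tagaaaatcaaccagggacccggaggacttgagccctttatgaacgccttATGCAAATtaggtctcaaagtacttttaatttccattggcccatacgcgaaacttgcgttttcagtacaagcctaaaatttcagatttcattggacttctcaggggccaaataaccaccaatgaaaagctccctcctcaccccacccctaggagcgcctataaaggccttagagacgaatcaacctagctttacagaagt
RefSeq gave such a stretch for 59 of the 64 genes. The octamer, on either strand (ATGCAAAT or ATTTGCAT), was in 7 of 17 for H2A and 6 of 16 for H2B, in none of the 26 for H1, H3 and H4, and in 526 of all 32851 (1.60%). Head-to-head partners can hold the same copy of it. The 7 tested H2A genes with the octamer had log2 differences of 1.63 to 2.47 (median 2.43). The 9 tested without it had 1.67 to 2.55 (median 2.48), so the ranges overlapped almost fully. Reads can fit several of these copies, and how they were assigned is not known. The differences of these genes may therefore not be separate, and an effect of the octamer was not tested. CCAAT (or ATTGG), which can lie anywhere in the stretch, was in all 17 for H2A, all 16 for H2B, all 5 for H1, 8 of 9 for H3 and 3 of 12 for H4, against 33.8% of all. TATAAA (or TTTATA) was in 4, 7, 8, 4 and 6 of the stretches for H1, H2A, H2B, H3 and H4, against 12.4% of all. These matches describe letters and show no binding.

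The genes that make and process histone mRNA went both ways. Of 39 tested genes for its transcription, 3′ processing and decay, 13 rose, 10 fell and 16 were not called, with a median log2 difference of 0.10. That is 59.0% called, beside 67.4% of all tested genes. SLBP, which binds the stem-loop, is encoded by Slbp, at 37.0, 40.3 and 48.5 CPM in EGFP and 40.9, 37.7 and 21.4 CPM in EWS-OCT4, with overlap and no call (-0.33, SE 0.23). Npat, whose product switches on histone transcription, fell by 0.54 (SE 0.18, adjusted p = 0.0203, edgeR). Hinfp, an activator of H4 genes, fell by 0.75 (SE 0.27), from 8.57, 6.59 and 7.92 CPM to 3.59, 5.35 and 4.78 CPM. Both calls were lost in 3 of the 6 fits that leave out 1 library. Casp8ap2, needed for histone expression in S phase, was not called (0.12, SE 0.16).

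Among the cleavage factors of the U7 particle, Lsm10 (-0.28, SE 0.16) and Lsm11 (0.30, SE 0.16) were not called, and Zfp473 fell by 1.21 (SE 0.22). Eri1, the nuclease that trims histone mRNA ends, rose by 0.54 (SE 0.12). The largest rises of this list were in Snrpe, from a mean of 153.7 CPM to 433.2 CPM, Ccne1 (1.22 on the log2 scale) and Snrpd3 (1.11), of which Snrpe and Snrpd3 encode core proteins of splicing particles and Ccne1 encodes cyclin E1. Pou2f1, which encodes the octamer-binding OCT1, rose by 0.57 (SE 0.17), from 81.4, 72.7 and 114.3 CPM to 141.6, 128.6 and 127.4 CPM.

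S phase genes were mostly higher in EWS-OCT4, as were the H1 and H2A members. Of 36 genes of S phase and DNA replication, 27 rose, 2 fell (Ccne2 and Dnmt1) and 7 were not called, with a median of 1.09 (80.6% called, beside 67.4% of all tested genes). Their summed level was 2686 to 3298 CPM in EGFP and 6754 to 6919 CPM in EWS-OCT4. E2f2 rose by 3.16, Mcm3 by 2.55, Lig1 by 2.29 and Mcm7 by 2.23, which are a cell cycle transcription factor, subunits of the replicative helicase and the ligase that joins lagging-strand fragments. The part of S phase in the histone differences was not tested.

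Histone chaperones, which carry new histones to DNA, were mixed: of 28, 16 rose, 6 fell and 6 were not called, with a median of 0.58 (78.6% called, beside 67.4% of all tested genes). Anp32e, a chaperone of H2A.Z, rose by 1.94, Npm3 by 1.81 and Chaf1b, of the replication-coupled assembly factor CAF-1, by 1.46. Rbbp7, a histone-binding subunit of several complexes, fell by 2.80. Of 11 tested replacement histone genes, 10 rose and 1 was not called, with a median of 2.06 (90.9% called, beside the same 67.4%). H1fx rose by 5.83, from 0.968, 0.701 and 2.34 CPM to 81.6, 82.3 and 68.8 CPM, H2afy2 and H2afx rose by 2.20 each and H2afv by 2.09. H3f3b, which encodes H3.3, was at 395, 424.4 and 425.1 CPM in EGFP and 403.7, 387.2 and 332.5 CPM in EWS-OCT4 and was not called (-0.15, SE 0.12). H3f3a, the other H3.3 gene listed, rose from 60.9, 59.1 and 67.6 CPM to 186, 171.1 and 157.4 CPM (1.455, SE 0.13).

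**Figure D5:**
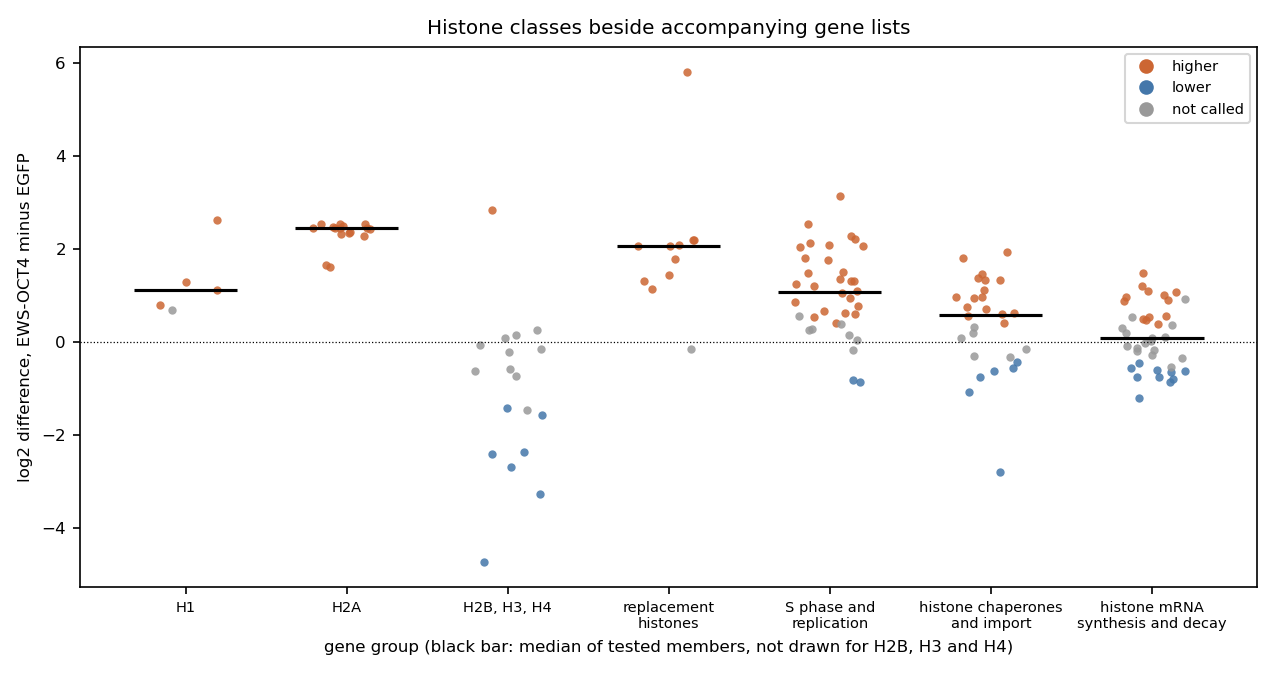
Log2 differences (EWS-OCT4 minus EGFP) of tested histone members by class beside those of 4 accompanying lists; each point is 1 gene, colours give the call, the bar is the median (not drawn for H2B, H3 and H4, of which few members were tested), and horizontal scatter is arbitrary. The H2A genes lie in a narrow band around 2.46, and the list for histone mRNA transcription, processing and decay spreads on both sides of 0 around 0.10.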

How the data were processed

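The authors deposited a table of whole-number counts by gene symbol for each library; the labels' protocols give 500 ng of total RNA and a Lexogen QuantSeq kit, and the submitters' processing notes name Bowtie2, edgeR and build mm10 without versions or roles. Not given in the sources used here: the counting tool, use of strand and treatment of reads that match several genes. A table had 23282 lines; repeated symbols (35, on 79 lines) were added up, and 4305 symbols were at 0 throughout. Libraries were grouped by title. The members, lists and tests were chosen with earlier results of these data known.

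Counts were fitted with edgeR 4.0.16 (TMM, factors 0.971 to 1.03; filterByExpr with a minimum count of 10 and total of 15; robust quasi-likelihood F test, 2-sided, Benjamini-Hochberg, threshold 0.05; biological coefficient of variation 19.3%). The SE is the size of the log2 difference divided by the square root of F. Intervals of ratios are exact at 95% and cover counting error only. On simulated counts of 13501 genes for the same comparison, 78% of 2-fold and 100% of 4-fold changes were recovered, with 5.32% false calls and 0 of the wrong sign. Only 100 genes were changed per fold, evenly up and down, above a minimum expected count and with the same dispersion for all genes. These rates therefore do not describe low-count members, such as most H2B, H3 and H4 genes, or data in which most genes differ.

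Named members were, per class, the 3 with the highest mean and the 3 largest called rises and falls without overlap; per list, up to 4 called genes with the largest change, plus Slbp, Npat, Casp8ap2, Lsm10, Lsm11, Eri1, Hinfp and Zfp473. Others were named after their values were seen. Of 40 listed histone mRNA genes 39 were in the files, and of 15 replacement histones 14. Transcripts came from GENCODE M21 and promoters from RefSeq, matched by older symbols. The fibroblast feeder markers gave 2 higher, 1 lower and 4 not called of 7 tested (42.9% called, beside 67.4% of all tested genes). Their sums were 18.6 to 19.1 CPM in EGFP and 27.9 to 34.6 CPM in EWS-OCT4. From EGFP to EWS-OCT4, mean Thy1 went from 0.636 to 17.9 CPM, Pdgfrb from 2.25 to 5.50 CPM and Postn from 9.15 to 0 CPM, so the sums rest largely on single genes. Alternatives were leaving out each library, libraries 1 and 2 only, a replicate block, other scalings, filters, thresholds and tools (limma-voom 3.58.1, DESeq2 1.42.0). Sums with libraries left out, and without Hist1h2ap and Hist1h2ao or Hist1h2bc, were added after seeing the data.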

Additional observations from a re-analysis of the deposited data

How the results depend on the processing

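Of the 28 called members, 24 kept the call in all of the 18 alternative fits that tested them; Hist1h1a, Hist1h1c, Hist1h2be and Hist1h3i lost it in some, each when 1 library was left out, and no called member changed sign. The called members include the 3 H3 and 2 H4 genes that passed the main filter only through EGFP libraries, and Hist2h2be, which passed only through EWS-OCT4 libraries. The 16 H2A rises stood in every fit that leaves out 1 library. With libraries left out in turn, the members called lower ranged from 7 to 11, H1 higher from 2 to 3, H2B lower from 1 to 2, H3 lower from 3 to 5 and H4 lower from 2 to 5; without EGFP library 2, H1 higher was 2 and H2B lower 1, without EWS-OCT4 library 1 H2B lower was 1 and H4 lower 4, without EGFP library 1 H4 lower was 5, and without EWS-OCT4 library 3 the members called lower were 11, with 5 for H3 and 4 for H4. Members called lower were 12 without the filter, 11 with DESeq2 and 1 at a mean of at least 10 CPM; H4 lower was 5 without the filter and 4 with DESeq2, and fewer or more genes were tested in these settings. At a mean of at least 10 CPM, H1 higher was 2, H2B higher 0 and H2B lower 1, and no H3 or H4 gene was left to test. At an adjusted p of 0.01, H1 higher was 2 and H2B lower 1. Against a 1.5-fold change, H1 higher was 2, histone mRNA genes 8 higher and 2 lower, chaperones 10 higher and 2 lower, and S phase genes 1 lower. The H2B ratio without Hist1h2bc was 0.767. Scaling moved the median of all genes by at most -0.06, with library totals only.

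Same-numbered libraries deviated together only weakly (correlations 0.040, 0.052 and 0.152), and the main fit treated them as unpaired. Such values cannot exclude that same-numbered libraries were prepared together. With the replicate block 20 members were higher and 7 lower, and H1 higher was 3, since Hist1h1a lost its call, as did Hinfp. H3 and H4 counts of 70 or fewer per library limit what could be detected there.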
